A study of Mus musculus with 9 samples.

Results

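The 10 genes described here, commonly used as monocyte markers, or chosen here for their abundance in CCR2-RFP cells, were followed in phagocytes of the mouse peritoneal wall: the lysozymes Lyz1 and Lyz2, the S100 genes S100a4, S100a6, S100a10 and S100a11, the ribonuclease gene Ear2, and the surface or cytoplasmic marker genes Cd52, Ly6c2 and Plac8. They are 10 of the 28764 gene symbols in the deposited table, matched by symbol. Lyz1, Cd52 and Ear2 were chosen by their TPM in CCR2-RFP cells, so their values in any comparison with those cells are a description without a test. At least 1 TPM (a length-corrected share of the transcripts in a library) in at least 3 libraries was required for testing, and 9 of the 10 genes passed. Ly6c2 did not.

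All animals were Cx3cr1 gfp/+ Ccr2 rfp/+ mice, the F1 of a cross of reporter strains, so every population, the double-negative cells included, carried a green reporter at 1 Cx3cr1 allele and a red reporter at 1 Ccr2 allele. Every mouse received 50 µg of Dextran-Cascade Blue intravenously 1 day earlier and was perfused before the tissue was digested. Among CD11b+ Ly6G- cells, double-negative cells (dextran+ MHCII-, neither reporter) made up 85 to 90% and are labelled as most of the sessile resident macrophages. CCR2-RFP cells (MHCII+, red reporter only, 10 to 15%) are labelled migratory tissue monocytes, and CX3CR1-GFP cells (MHCII+, green reporter only, 0.5 to 1.5%) sessile resident macrophages. Each population has 3 libraries, from sorts 1, 2A and 2B, and values below are in that order unless stated otherwise. The labels used here give neither age nor sex. Ccr2 was at 95.4 to 115 TPM in the CCR2-RFP libraries and at most 6.68 TPM in the other 6. In sorted bulk samples, fewer cells of a type and less RNA per cell cannot be told apart.

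Lysozymes cleave the peptidoglycan of bacterial walls; mice have a macrophage-type gene, Lyz2, and a neighbouring copy, Lyz1, best known from Paneth cells of the gut. S100 proteins are small calcium-binding proteins that act through partners: S100A10 and S100A11 bind annexins, and S100A4 binds non-muscle myosin. Ear2 encodes an eosinophil-associated ribonuclease of the RNase A family, Ly6c2 a chain of the Ly6C antigen by which blood monocytes are sorted, Cd52 a small lipid-anchored surface glycoprotein, and Plac8 a small cysteine-rich protein abundant in Ly6C-high monocytes.

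The lysozyme coding sequences are shown first because the measured split between Lyz1 and Lyz2 rests on the bases in which they differ. Lyz1 lies at chr10:117287797-117292868 on the minus strand (GENCODE M21 on GRCm38, the assembly of mm10) and Lyz2 at chr10:117277331-117282321 on the same strand, 5475 bases apart. Each coding sequence has 444 bases without the stop codon, 22 of which differ (95.05% identity), and the longest identical run is 118 bases. The first 240 bases, from the start codon, hold 17 of these differences and are printed with the differing bases in capitals.
Lyz1: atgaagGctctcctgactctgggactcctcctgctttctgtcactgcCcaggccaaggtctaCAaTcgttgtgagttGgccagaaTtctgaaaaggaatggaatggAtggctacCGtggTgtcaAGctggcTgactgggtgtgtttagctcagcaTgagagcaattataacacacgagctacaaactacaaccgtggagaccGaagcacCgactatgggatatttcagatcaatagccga
Lyz2: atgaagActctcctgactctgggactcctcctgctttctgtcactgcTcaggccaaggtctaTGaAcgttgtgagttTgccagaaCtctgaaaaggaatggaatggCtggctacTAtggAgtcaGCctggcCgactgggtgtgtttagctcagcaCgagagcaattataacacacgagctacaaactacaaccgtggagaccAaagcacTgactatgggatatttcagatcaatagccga
Of all 75-base windows of the Lyz1 transcript, the length of a read, 6.22% were also found in Lyz2, and of all 31-base windows 34.2%. The authors' Salmon step therefore had to divide some reads between the pair, and how it did so is part of each value below.

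Lyz2 was abundant everywhere and Lyz1 mainly in CCR2-RFP cells. Lyz1 stood at 18.2, 18.1 and 55.0 TPM in the double-negative libraries (30.4 ± 21.3, SD, n = 3), at 1043, 916 and 1179 TPM in the CCR2-RFP libraries (1046 ± 131) and at 7.56, 3.24 and 10.3 TPM in the CX3CR1-GFP libraries (7.03 ± 3.55). The 3 populations did not overlap, and double-negative 2B was the highest outside CCR2-RFP. In rank by mean TPM, Lyz1 was 27 among all listed symbols in CCR2-RFP cells, 747 in double-negative and 3205 in CX3CR1-GFP cells. Its mean was 34.4 times as high in CCR2-RFP as in double-negative cells and 149 times as high as in CX3CR1-GFP cells, values that the choice of the gene fixes in direction.

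Lyz2 stood at 1268, 1129 and 1503 TPM for double-negative (1300 ± 189), 1931, 1989 and 2429 TPM in CCR2-RFP (2116 ± 272) and 1087, 1179 and 975 TPM in CX3CR1-GFP cells (1080 ± 102). Each CCR2-RFP library was above all others, while the other populations overlapped. On the log2(TPM + 1) scale, Lyz2 was higher in CCR2-RFP than double-negative cells by 0.70 (SE 0.158, limma adjusted p = 0.00799) and lower in CX3CR1-GFP than in CCR2-RFP cells, at -0.97 (SE 0.158, limma adjusted p = 0.00132). The first of these calls was kept in 17 of the 22 alternative settings that keep the lysozymes apart. A required fold change of at least 2 removed both calls. The first was also lost without a filter on low values (limma adjusted p = 0.0541), after quantile normalization (0.30, adjusted p = 0.162), after rescaling without mitochondrial, ribosomal and Siglece transcripts (0.50, adjusted p = 0.0593) and without sort 2A (0.65, adjusted p = 0.0553).

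As a share of the summed TPM of both lysozymes, Lyz1 made up 35.1, 31.5 and 32.7% in the CCR2-RFP libraries (33.1% ± 1.81), 1.41, 1.58 and 3.53% for double-negative (2.17% ± 1.18) and 0.691, 0.274 and 1.04% in CX3CR1-GFP libraries (0.669% ± 0.385). In CCR2-RFP cells about the same share was thus seen in every library. Between CX3CR1-GFP and double-negative cells the shares did not overlap and differed by -1.50 percentage points (two-sided exact permutation test, p = 0.1, the smallest that 3 against 3 can give). Of the difference in summed lysozyme TPM between CCR2-RFP and double-negative means, Lyz1 made up 1016 TPM (55.4%) and Lyz2 816 TPM (44.6%). None of the other 7 listed lysozyme-family genes passed the filter.

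**Figure D1:**
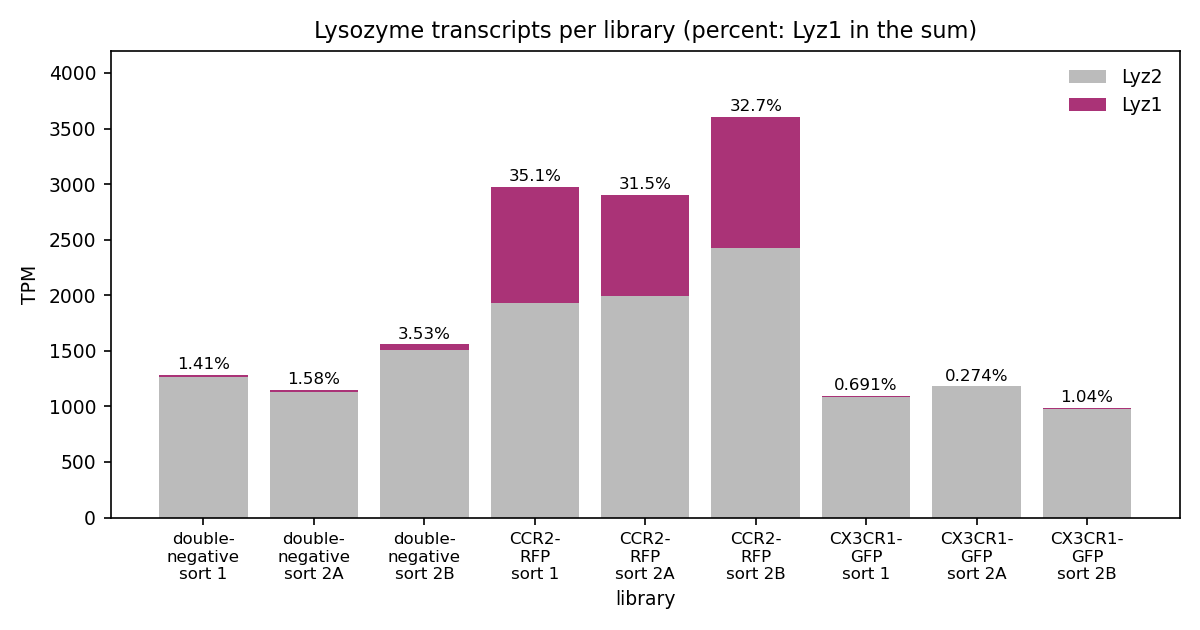
Summed TPM of Lyz2 (grey) and Lyz1 (purple) in each of the 9 libraries, with the percentage of Lyz1 in the sum above each bar. Lyz1 takes 31.5 to 35.1% of the sum in CCR2-RFP libraries and at most 3.53% elsewhere.

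The 4 S100 genes were all higher in CCR2-RFP cells than in either macrophage population. S100a11 and S100a10 lie 28792 bases apart on chromosome 3, and S100a4 and S100a6 are a second close pair, 6836 bases apart, on the same chromosome. Between the pairs lie 2896306 bases. The summed TPM of the 4 genes was 1047 ± 130 in CCR2-RFP, 186 ± 39.9 in double-negative and 153 ± 48.8 in CX3CR1-GFP cells (SD, n = 3). S100a11 (chr3:93520488-93526287, plus strand), whose product binds annexin A1, stood at 29.8, 25.4 and 32.6 TPM for double-negative, 310, 252 and 334 TPM in CCR2-RFP and 30.7, 35.2 and 37.0 TPM among CX3CR1-GFP libraries. The CCR2-RFP libraries lay far above the other 6, which formed a narrow band. The log2 difference was 3.31 from double-negative (SE 0.156, limma adjusted p = 2.18e-06) and -3.08 for CX3CR1-GFP against CCR2-RFP cells (SE 0.156, limma adjusted p = 2.57e-06).

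S100a4 (chr3:90603771-90606045, plus strand), which encodes the myosin-binding metastasin, stood at 54.5, 35.6 and 45.8 TPM for double-negative, 271, 202 and 248 TPM in CCR2-RFP and 39.3, 17.3 and 27.3 TPM among CX3CR1-GFP libraries. It was higher in CCR2-RFP than double-negative cells by 2.39 on the log2 scale (SE 0.270, limma adjusted p = 0.000113), and CX3CR1-GFP cells were at -3.12 against CCR2-RFP cells (limma adjusted p = 2.65e-05). Sort 2A had the lowest value in each population.

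S100a6 (chr3:90612882-90624181, plus strand), the gene of calcyclin, stood at 57.5, 35.9 and 65.3 TPM for double-negative, 316, 282 and 330 TPM in CCR2-RFP and 88.6, 31.3 and 27.4 TPM among CX3CR1-GFP libraries. The CX3CR1-GFP library of sort 1 was above the double-negative ones but far below any CCR2-RFP library. The log2 differences were 2.57 (SE 0.384, limma adjusted p = 0.000724) from double-negative and -2.83 (limma adjusted p = 0.000429) for CX3CR1-GFP against CCR2-RFP cells.

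S100a10 (chr3:93555080-93564643, plus strand), which encodes the p11 partner of annexin A2, stood at 62.8, 43.0 and 68.8 TPM for double-negative, 241, 162 and 191 TPM in CCR2-RFP and 50.3, 35.7 and 38.5 TPM among CX3CR1-GFP libraries. Its differences were the smallest of the 4, at 1.76 (SE 0.218, limma adjusted p = 0.000205) and -2.22 (limma adjusted p = 5.29e-05). All 4 S100 genes kept both calls in 23 of 23 alternative settings, and their CCR2-RFP libraries did not overlap with the others.

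In all, 5 of the 6 genes tested between CCR2-RFP and double-negative cells were higher (the 4 S100 genes and Lyz2), where 24.8% of all 10136 genes tested were called in either direction and 14.9% were higher. Their CCR2-RFP libraries lay above all double-negative ones, as did those of 25.8% of all genes. Between CX3CR1-GFP and CCR2-RFP cells the same 5 of 6 were lower, where 26.3% of all genes were called and 17.3% were lower. Again no libraries overlapped, as in 25.2% of all genes in this direction. Both comparisons use the same CCR2-RFP libraries.

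**Figure D2:**
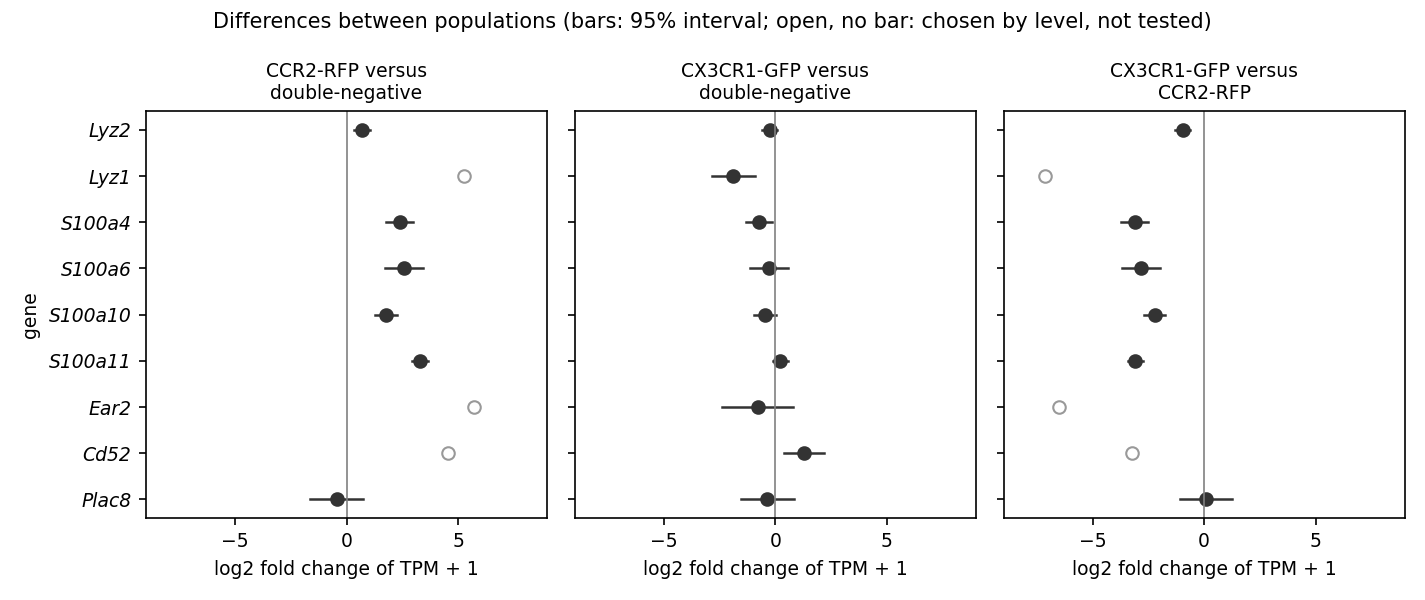
Log2 fold change of TPM + 1 for the 9 genes that passed the filter, in the 3 comparisons of populations. Filled points carry 95% intervals from limma, and open points are genes chosen for their level in CCR2-RFP cells, shown without a test. The S100 genes lie at 1.76 to 3.31 in the left panel.

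Of 4 further S100 genes that passed the filter, 0 were called between CCR2-RFP and double-negative cells (limma), against 24.8% of all genes tested. Of these 4, 3 had an unadjusted p below 0.05. In 9 of 23 alternative settings 1 or 2 of them were called. Without the double-negative library of sort 2A the count was 1, without the CX3CR1-GFP library of sort 2A 1, and without that of sort 2B 2. S100a1 stood at 12.1 to 21.7 TPM for double-negative, 17.9 to 21.8 in CCR2-RFP and 5.19 to 14.4 TPM among CX3CR1-GFP libraries, and S100a13 at 7.79 to 17.1, 17.2 to 24.6 and 6.69 to 7.58 TPM. Both were lower in CX3CR1-GFP than in CCR2-RFP cells, as were 17.3% of all genes tested. S100a1 was at -1.28 (limma adjusted p = 0.0188) and S100a13 at -1.47 (limma adjusted p = 0.00224). This count of 2 was 1 in 8 of the 23 settings, among them those without CCR2-RFP 1, CCR2-RFP 2B or CX3CR1-GFP 2A, and 3 without CX3CR1-GFP 2B. S100a8 and S100a9, the calprotectin genes of neutrophils and blood monocytes, reached at most 0.0613 and 0.270 TPM in CCR2-RFP libraries. S100a9 was highest, at 16.7 TPM, in CX3CR1-GFP 2A. Genes at 0 in all libraries were S100a3, S100a7a and S100z.

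Of 15 tested genes for S100 partners and receptors, 4 were higher and 1 lower in CCR2-RFP than double-negative cells. Their median log2 difference was 0.25 against 0.09 for all genes, of which 24.8% were called and 14.9% were higher. Anxa2, the annexin that binds S100A10, stood at 23.6, 20.0 and 23.7 TPM for double-negative, 159, 129 and 133 TPM in CCR2-RFP and 19.6, 16.7 and 16.7 TPM among CX3CR1-GFP libraries. It was higher in CCR2-RFP than double-negative cells by 2.59 (limma adjusted p = 2.83e-06). Vim, for the intermediate filament vimentin, was higher by 2.05, Myl12a, a myosin light chain, by 0.97 and Ahnak, for a large scaffold that binds the annexin complex, by 0.81, while Tlr4, the endotoxin receptor, was at -0.93. CX3CR1-GFP against CCR2-RFP cells gave 6 lower and 2 higher, where 26.3% of all genes were called. CX3CR1-GFP against double-negative cells gave 0 called (limma), with 6 at an unadjusted p below 0.05, where 2.77% of all genes were called.

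**Figure D3:**
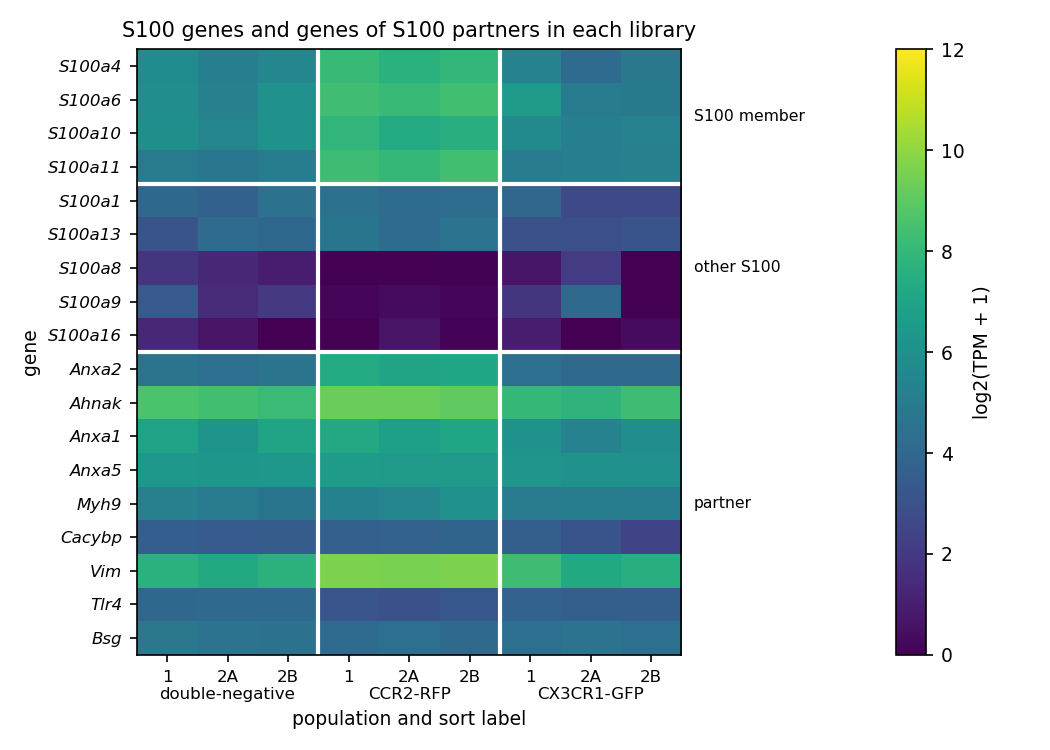
Heat map of log2(TPM + 1) for the 4 S100 genes followed here, other S100 genes and genes of S100 partners (rows) in the 9 libraries (columns, by population and sort). S100a4, S100a6, S100a10, S100a11, Anxa2 and Vim are brightest in the CCR2-RFP columns, and S100a8 and S100a9 are dark in all 3 of them.

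Ear2 (chr14:44102654-44103534, plus strand) stood at 273, 285 and 448 TPM in the CCR2-RFP libraries (335 ± 98.2), at 2.28, 3.31 and 16.6 TPM for double-negative (7.39 ± 7.96) and at 0.438, 2.46 and 8.65 TPM among CX3CR1-GFP libraries (3.85 ± 4.28). Sort 2B was the highest in each population. The differences from CCR2-RFP cells, a description, were 5.70 for CCR2-RFP against double-negative and -6.49 for CX3CR1-GFP against CCR2-RFP cells on the log2 scale. Ear1, Ear3, Ear10 and Ear12 reached at most 0.583 TPM, and Ear6 and Ear14 were at 0. Of the 75-base windows of the Ear2 transcript, 22.0% are also present in Ear1, Ear6, Ear10 or Ear14, so the division of reads among these copies is uncertain.

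Among other RNase A genes, Rnase6 moved with Ear2 and Rnase4 and Ang against it. Rnase6 stood at 2.61 to 2.98 TPM for double-negative, 17.1 to 20.7 TPM in CCR2-RFP and 0.182 to 1.89 TPM among CX3CR1-GFP libraries, and was higher in CCR2-RFP than double-negative cells by 2.43 (limma adjusted p = 0.000159). Rnase4 fell from 155 to 198 TPM in double-negative to 13.3 to 28.7 TPM in CCR2-RFP libraries, a log2 difference of -3.04. Ang, for angiogenin, was at -2.97. Eosinophil markers were low: their summed TPM was 1.40 to 13.8 in CCR2-RFP, 4.28 to 8.94 in double-negative and 0.252 to 4.51 in CX3CR1-GFP libraries. Alox15 held 0.890 to 12.8, 3.98 to 8.61 and 0.0441 to 4.19 TPM of these sums, in that order. Prg2 was at 0 throughout and Epx reached at most 0.0642 TPM.

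Cd52 (chr4:134082448-134095082, minus strand) stood at 179, 173 and 180 TPM in CCR2-RFP libraries (177 ± 4.06), 7.09, 3.22 and 12.4 TPM for double-negative (7.57 ± 4.61) and 10.98, 28.6 and 18.2 TPM among CX3CR1-GFP libraries (19.2 ± 8.86). The CCR2-RFP values were the tightest of the 3, and the other populations overlapped. Described without a test, the log2 differences were 4.53 for CCR2-RFP against double-negative and -3.23 for CX3CR1-GFP against CCR2-RFP cells. Cd2, a T cell and NK cell adhesion gene, also rose in CCR2-RFP cells, from 1.07 to 2.15 TPM in double-negative to 33.5 to 41.1 TPM, while Cd3d stood at 0.748 to 1.99 TPM in CCR2-RFP and 0.544 to 1.78 TPM in double-negative libraries and Cd3e reached at most 0.249 TPM in any of the 9. The summed T and NK cell markers, 36.6 to 50.6 TPM in CCR2-RFP against 2.28 to 3.63 TPM in double-negative libraries, were mostly Cd2 in CCR2-RFP libraries. Of the 4 tested, 2 were higher (Cd2 and Klrb1c), against 14.9% of all genes tested. Gzma stood at 4.36, 0.0667 and 0.646 TPM in CCR2-RFP and 0, 5.47 and 0.776 TPM among CX3CR1-GFP libraries. Nkg7 stood at 3.32, 0 and 0 TPM and at 0, 1.58 and 1.59 TPM there, and both genes were at 0 in double-negative libraries. The part of these markers in the Cd52 values was not tested.

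The blood monocyte markers Ly6c2 and Plac8 were low in every library, at most at 1.96 and 3.41 TPM. Ly6c2 (chr15:75108158-75111970, minus strand) stood at 0.0344, 0.0682 and 0.0171 TPM for double-negative, 1.04, 0 and 0.0778 TPM in CCR2-RFP and 0.0411, 1.96 and 1.00 TPM among CX3CR1-GFP libraries. Its populations overlapped, and with no filter on low values no comparison was called (limma adjusted p = 0.781, 0.591 and 0.529 for CCR2-RFP against double-negative, CX3CR1-GFP against double-negative and CX3CR1-GFP against CCR2-RFP cells). Ly6c1, which shares 21.9% of the 75-base windows of Ly6c2, stood at 1.06 to 5.58 TPM. Ly6e, of the same family, stood at 238 to 344 TPM for double-negative, 17.8 to 43.6 TPM in CCR2-RFP and 83.7 to 136 TPM among CX3CR1-GFP libraries. Plac8 (chr5:100553725-100572245, minus strand) stood at 2.25, 0.784 and 3.41 TPM for double-negative, 1.60, 0.319 and 1.95 TPM in CCR2-RFP and 2.44, 0 and 2.54 TPM among CX3CR1-GFP libraries. Sort 2A was the lowest in each population, and the CCR2-RFP difference from double-negative was -0.45 (95% interval -1.62 to 0.73, limma adjusted p = 0.603).

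**Figure D4:**
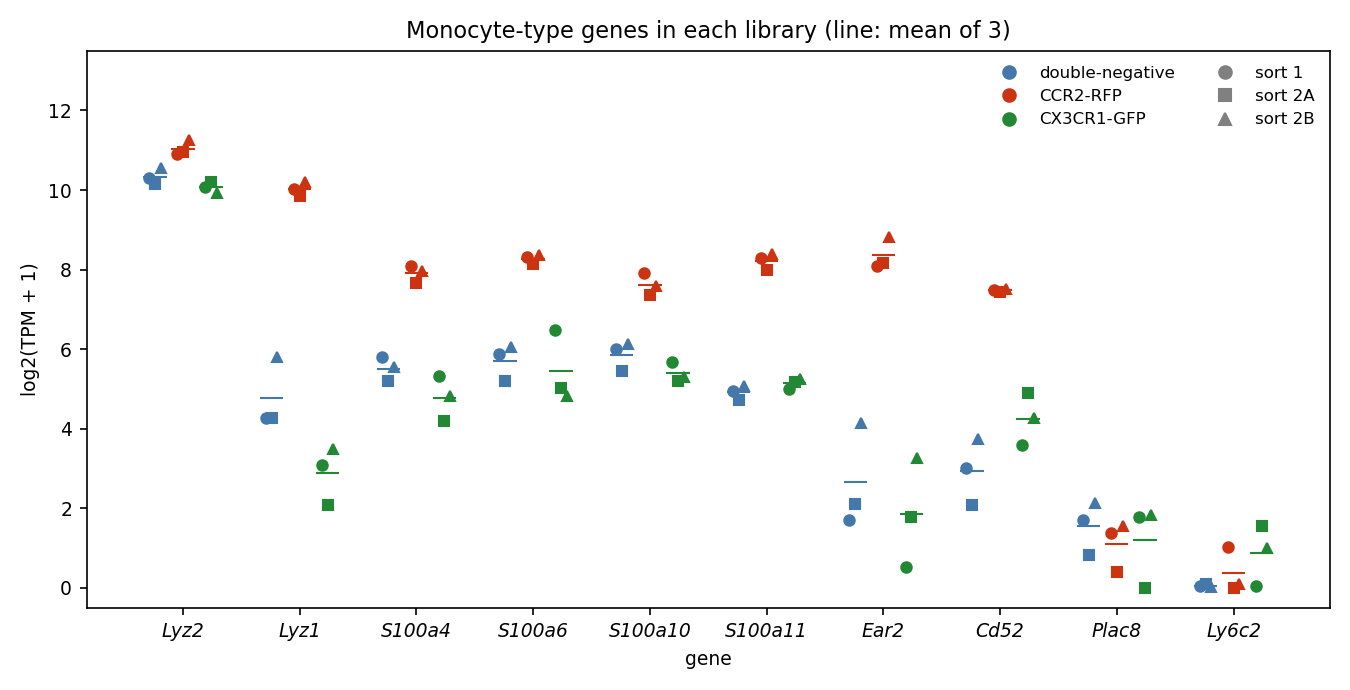
Level of the 10 genes as log2(TPM + 1) in each library, with populations by colour, sorts by symbol and a line at the mean of 3. CCR2-RFP libraries are the highest for 8 of the 10 genes, among them Lyz1, Ear2 and Cd52, which were chosen for that level. In 25.8% of all genes tested, CCR2-RFP libraries lie above all double-negative ones. Plac8 and Ly6c2 stay at the bottom of the scale in every population.

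Other classical monocyte markers went against the monocyte label in part. Vcan (versican) reached at most 0.759 TPM in any library and Chil3, a chitinase-like secreted protein, 0.727 TPM. F13a1, for a coagulation factor subunit, was lower in CCR2-RFP cells (135, 104 and 144 TPM) than in double-negative cells (378, 337 and 374 TPM), by -1.51 (limma adjusted p = 0.000146). Between CCR2-RFP and double-negative cells, 24.8% of all genes tested were called and 14.9% were higher. Of 43 further classical monocyte genes tested, none of them among the 10 followed here, 24 were higher and 5 lower in CCR2-RFP than double-negative cells, with a median of 0.95 against 0.09 for all genes. Those with the smallest p were Ccr2, which the sort selected, Cd44, a hyaluronan receptor (2.56, limma adjusted p = 2.94e-06), Napsa, an aspartic protease (3.44), and Coro1a, an actin-binding protein (2.32). The list was compiled with earlier results of these data known.

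Dendritic cell genes were also measured, and they moved in both directions. Of 13 tested, 8 were higher and 3 lower in CCR2-RFP than double-negative cells. Of all genes tested, 24.8% were called in this comparison and 14.9% were higher. The list summed to 255 to 311 TPM in CCR2-RFP, 344 to 410 in double-negative and 155 to 171 TPM in CX3CR1-GFP libraries. In double-negative libraries the sum was mostly Clec10a (165 to 207 TPM) and Mgl2 (101 to 123 TPM). Itgax (CD11c) stood at 8.31 to 9.34 TPM in CCR2-RFP and at most 0.195 TPM in double-negative libraries, and Batf3, a transcription factor of conventional dendritic cells, was higher by 2.49 (limma adjusted p = 1.96e-05). Clec10a, a lectin, was at -2.49. Macrophage genes went the other way, with 15 of 18 lower and 1 higher. Their part in the values of the genes followed here was not tested.

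**Figure D5:**
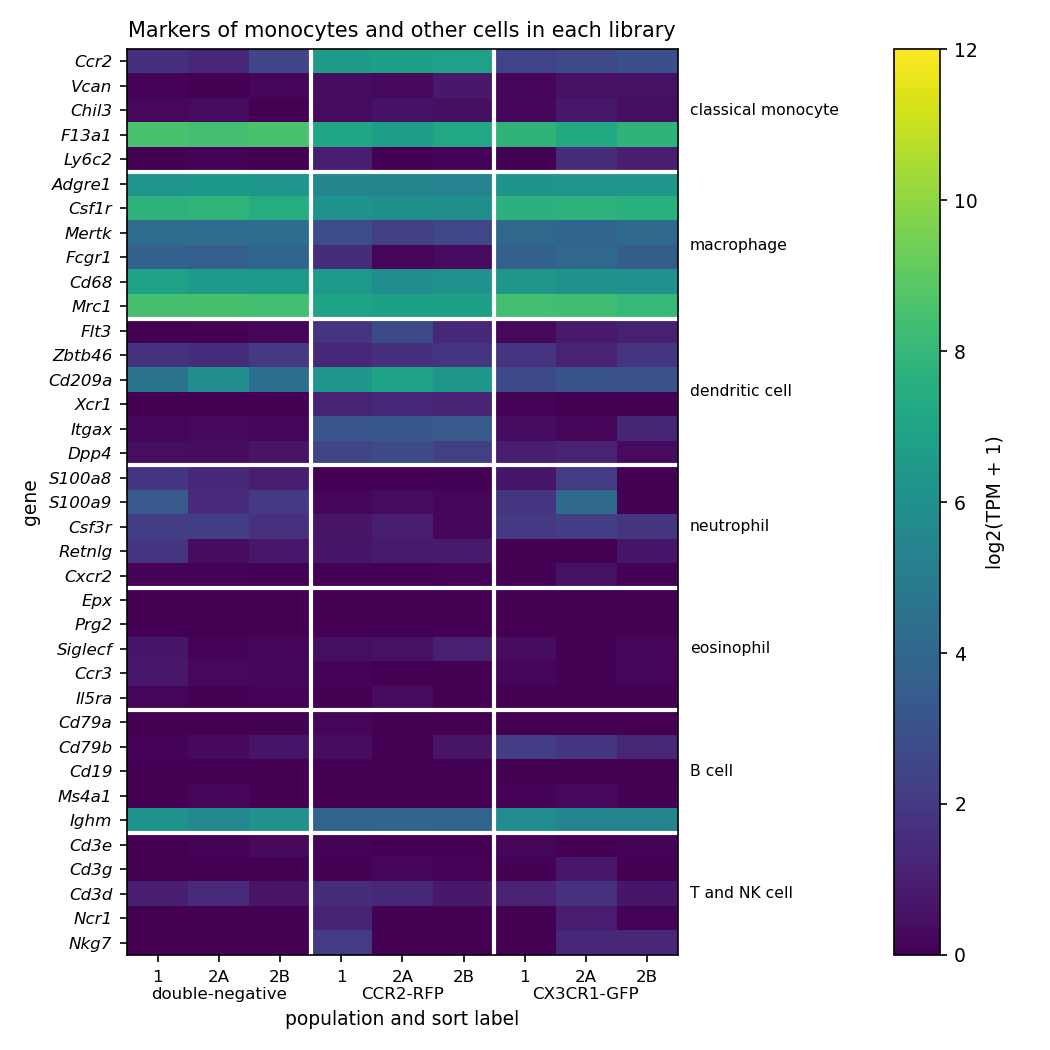
Heat map of log2(TPM + 1) for markers of monocytes, macrophages, dendritic cells and 4 other groups of blood cells (rows) in the 9 libraries (columns). Ccr2 and Itgax are brightest in CCR2-RFP columns, while Vcan, Chil3 and Ly6c2 are dark in all columns.

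Between CX3CR1-GFP and double-negative cells, the populations labelled as sessile macrophages, none of the genes passed the test. Of 9 tested, 0 were called at an adjusted p below 0.05 (limma), 3 had an unadjusted p below 0.05, and 2.77% of all genes tested were called. No other testing tool was run. Lyz1 came nearest, at -1.88 (SE 0.437, 95% interval -2.86 to -0.91, limma adjusted p = 0.0524), with all 3 CX3CR1-GFP libraries below all double-negative ones, a separation in this direction seen in 12.9% of all genes. With the sort label as a replicate block the adjusted p was 0.0126 (limma). For the summed lysozymes the difference was -0.28 (limma adjusted p = 0.448).

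Cd52 was at 1.30 (95% interval 0.40 to 2.19, limma adjusted p = 0.142) and S100a4 at -0.73 (95% interval -1.33 to -0.13, limma adjusted p = 0.227), both with overlapping libraries. The intervals of S100a11 (-0.12 to 0.57), Lyz2 (-0.61 to 0.09), S100a10 (-0.95 to 0.02) and S100a6 (-1.12 to 0.59) lay within about 1 log2 unit or slightly more. Ear2 had the widest interval, at -2.37 to 0.79, and Plac8 ranged from -1.53 to 0.82.

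Relative to the CCR2-RFP mean, the level in double-negative libraries differed between the genes. Lyz1, Ear2 and Cd52 were chosen for their level in CCR2-RFP cells, a choice that favours low percentages, so their values are a description. As a percentage of the CCR2-RFP mean, the double-negative libraries of sorts 1, 2A and 2B held 1.74, 1.73 and 5.25% for Lyz1, 0.681, 0.988 and 4.94% for Ear2 and 3.997, 1.82 and 6.996% for Cd52. Ccr2 itself, the gene of the gate, was at 1.98, 1.54 and 4.31%. In each of these 4 genes double-negative 2B was the highest. Fn1, of the classical monocyte list, was at 3.57, 6.47 and 5.38%, highest in double-negative 2A. Whether CCR2-RFP cells contributed to double-negative 2B was not tested. S100a11 was at 9.98, 8.49 and 10.9%, S100a4 at 22.7, 14.8 and 19.1%, and Lyz2 at 59.9, 53.3 and 71.0%. In the CX3CR1-GFP libraries Lyz1 was at most at 0.983% and Ear2 at 2.58%. Cd52 was there at 6.19, 16.1 and 10.2%, near S100a11 at 10.3, 11.8 and 12.4%.

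Promoters are shown for Lyz1, Ear2 and S100a11, genes high together in CCR2-RFP cells with a match to one of 4 searched motifs. They are the 250 bases before the RefSeq start (GRCm38.p6), printed on the strand of the gene, with matches in capitals.
Lyz1, chr10:117292869-117293118, minus strand: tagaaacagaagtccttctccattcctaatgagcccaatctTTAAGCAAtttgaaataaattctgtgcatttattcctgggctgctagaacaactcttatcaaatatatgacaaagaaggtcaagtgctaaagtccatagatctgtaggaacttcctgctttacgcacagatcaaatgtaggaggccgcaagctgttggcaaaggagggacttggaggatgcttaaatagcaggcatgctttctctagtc
Ear2, chr14:44102404-44102653, plus strand: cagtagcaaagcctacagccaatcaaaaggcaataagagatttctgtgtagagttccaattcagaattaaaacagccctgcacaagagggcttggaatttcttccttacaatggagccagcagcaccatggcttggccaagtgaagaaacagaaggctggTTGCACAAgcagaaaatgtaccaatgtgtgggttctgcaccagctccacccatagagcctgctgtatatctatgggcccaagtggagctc
S100a11, chr3:93520246-93520495, plus strand: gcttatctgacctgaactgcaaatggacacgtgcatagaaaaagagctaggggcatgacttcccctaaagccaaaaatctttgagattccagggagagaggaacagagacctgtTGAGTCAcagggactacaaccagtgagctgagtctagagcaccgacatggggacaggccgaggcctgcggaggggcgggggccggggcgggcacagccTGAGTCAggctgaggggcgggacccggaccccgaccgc
The capitals in Lyz1 and Ear2 match a C/EBP motif, TTGCNNAA (read on the minus strand in Lyz1), and those in S100a11 an AP-1 motif, TGANTCA. Both strands were searched for these, for PU.1 (GAGGAAG) and for an NF-kB motif. RefSeq entries were matched for 8 of the 10 genes, all but S100a10 and Cd52, with 2 entries each for Ly6c2 and Plac8. In any entry, 3 of these 8 had a C/EBP match, 1 an AP-1 match, 1 a PU.1 match and 0 an NF-kB match. The third C/EBP match was in 1 of the entries of Plac8 and the PU.1 match in Ly6c2, genes near 0 in all populations. Per single promoter, the motifs were found in 9.57, 6.75, 10.6 and 0.357% of 32817 mouse promoters of the same length, in that order, a share that a gene with 2 entries has 2 chances to meet. S100a4, S100a6 and Lyz2 had no match of the 4 motifs. The Lyz1 and Lyz2 windows were identical in the 50 bases next to the start and in 152 of 250 bases without gaps. A match describes letters, not binding.

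The genes most like each of these by Pearson r of log2(TPM + 1) over the 9 libraries, among 2964 genes, mostly share the difference between CCR2-RFP and other cells. For Lyz1 these were Arpc4, an actin-nucleating subunit (r = 0.991), Ak8, an adenylate kinase (0.991), and Cd200r1, an inhibitory receptor (0.990). For Ear2 they were Hcar2, the niacin receptor (0.995), Olfm1 (0.992) and Serpinb10 (0.990). S100a11 was followed by Adss (0.997), H2-DMb2 (0.995) and Glipr2 (0.994), S100a4 by Psma4 (0.993), Cd226 (0.989) and Rnase6 (0.989), S100a6 by Tuba1a (0.987), Vim (0.983) and Nabp1 (0.982), and S100a10 by Cd226 (0.989), Ak8 (0.985) and Psma4 (0.984). Lyz2 was closest to Psmb1, a proteasome subunit (0.978), Arpc5 (0.976) and Cox5a (0.9753), and Cd52 to Gpr132 (0.986), Evi2b (0.984) and Batf3 (0.980). Plac8 and Ly6c2, near 0 throughout, reached 0.914 with Cd99 and 0.904 with Usp9x.

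Listed TPM summed to 278579 to 382828 per library, and depth is unknown. Skeletal muscle transcripts summed to 37.0 to 878 TPM in CCR2-RFP and 179 to 1499 TPM among CX3CR1-GFP libraries, the highest in sort 2A of each, against 247 to 320 TPM in double-negative libraries. Neutrophil markers summed to 5.21 to 6.53 TPM in CCR2-RFP, 17.9 to 36.6 in double-negative and 7.94 to 42.1 TPM among CX3CR1-GFP libraries, with Elane at 0. Of these sums, Mmp9 held 3.46 to 4.87, 10.7 to 28.3 and 4.42 to 17.5 TPM, in that order. Without the 3 libraries of sort 2A, the 4 S100 genes were still called in both CCR2-RFP comparisons, and Lyz2 in that with CX3CR1-GFP cells.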

How the data were processed

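RNA of 3 sorted populations, 3 libraries each, had been read as 75-base pairs. The deposited values are TPM per gene symbol, made by the authors with bcl2fastq 2.18, cutadapt 1.8.3 and Salmon 0.11.3 on mm10, per the submitters' processing notes. How transcripts were summed to genes is not given in the sources used here. Libraries were grouped by sample title, which the cell type and the column heading bear out, since the description field names the other reporter population for 6 of the 9 samples. TPM hold no counts, so the number of libraries sets the precision. The p-values set each difference against the spread between libraries within populations, pooled over all 9 libraries and moderated over all genes.

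Values were tested as log2(TPM + 1), a scale that understates changes of low genes, with limma 3.58.1 (R 4.3.3). The filter kept the 10136 genes that reached 1 TPM in 3 or more of the 9 libraries. The model had 1 mean for each population over all libraries, with a trended prior variance, each of 3 contrasts was two-sided, and Benjamini-Hochberg adjustment covered all genes kept, with calls at adjusted p below 0.05. The procedure was also run on simulated data with independent normal noise, without sort effects or divided reads. That run cannot show how the procedure does where these are present. The series design gives 3 mice and 3 replicates per group, so the sort labels were read as animals and as pairing the libraries. The main model had no term for this pairing, which only the replicate block setting added. Deviations from the population means correlated at 0.03 to 0.21 between libraries of the same sort (9 of 9 positive) and at -0.16 to 0.11 between others.

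The 10 genes, the gene lists and the tests were chosen with earlier results of these data known. Named genes were all 10, family genes of at least 10 TPM in 1 population, up to 4 called genes with the smallest p in other lists, up to 3 of the most abundant markers of other cells, and the 3 most alike genes by Pearson r. Other genes of those lists, named for being near 0 or for their role, were chosen after their values were seen. There were 23 alternative settings, of which 2, leaving out sort 2A and applying the filter on deposited TPM to the rescaled values, were chosen after seeing the data. The latter was added once the planned rescaling had given its result. Some listed markers are not reported here.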

Additional observations from a re-analysis of the deposited data

How the results depend on the processing

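The 23 alternative settings were pseudocounts of 0.1 and 5, other filters, scalings and models, and paralogs summed. Each library was also left out in turn, and 2 settings were added after seeing the data. The S100 genes followed here were called in both comparisons with CCR2-RFP cells in all 23. In the 22 settings that keep the lysozymes apart, Lyz2 kept its call against double-negative cells in 17. It kept that between CX3CR1-GFP and CCR2-RFP cells in 21. With paralogs summed, the value is for Lyz1 plus Lyz2 and does not test Lyz2 alone. The genes tested also varied: Plac8 was tested in 22 of the 23 settings, and Ly6c2 entered with no filter on low values. Rescaling without mitochondrial, ribosomal and Siglece transcripts gave Lyz2, CCR2-RFP against double-negative, an adjusted p of 0.0593 with the filter reapplied to the rescaled values and 0.0401 (limma) with the genes of the original filter, a version computed only after the first result was known. The log2 difference was 0.50 in both, with 14249 and 10044 genes tested. A minimum fold change of 2 removed both Lyz2 calls.

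Between CX3CR1-GFP and double-negative cells the count of 0 became 1 (Lyz1) with the 5 TPM filter (adjusted p = 0.0377), with the replicate block (adjusted p = 0.0126, limma), and without the CX3CR1-GFP library of sort 2B (-2.18, adjusted p = 0.0461). Leaving out each library in turn gave counts from 0 to 1. The replicate block changed no other call of the 10 genes. Directions that reversed were all of uncalled differences. Plac8, CX3CR1-GFP against CCR2-RFP, was -0.38 with a pseudocount of 0.1, and -0.27 to 0.69 across settings that left out a library. Leaving out each library in turn, Plac8 in CX3CR1-GFP against double-negative cells ranged from -0.72 to 0.24 and S100a6 in that comparison from -0.79 to 0.041. The cause was not tested.

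The rescaling with the filter reapplied, which also changes the genes tested, moved the median of all genes by -0.23 (CCR2-RFP against double-negative), 0.12 and 0.34 (CX3CR1-GFP against double-negative and CCR2-RFP). With the genes of the original filter the shifts were -0.18, 0.08 and 0.26. With the filter reapplied, the split of called genes between CCR2-RFP and double-negative cells went from 1512 higher and 1001 lower to 1009 and 1309, and with quantile normalization to 1107 and 1136. For CX3CR1-GFP against CCR2-RFP it went from 908 and 1758 to 1584 and 973, and to 1110 and 1158. The directions of the 4 S100 genes and Lyz2 in those comparisons held under each.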
